A study of Mus musculus with 4 samples.

Results

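The Hox genes of the HoxA, HoxB, HoxC and HoxD clusters were followed in single-cell RNA-seq of mouse embryoid bodies (EBs). The members were all features whose symbol is Hoxa, Hoxb, Hoxc or Hoxd followed only by digits, a rule that uses no measured value. It found 39 genes among the 25209 features of the matrices, 11 in HoxA, 10 in HoxB, 9 in HoxC and 9 in HoxD. The data comprised 2 wild-type (WT) and 2 LSD1 knockout (LSD1KO) libraries of day 6 EBs, which were grown from V6.5 embryonic stem cells as hanging drops in serum medium from which the 2i inhibitors and LIF had been left out. The knockout cells lack the promoter and the first exon of Kdm1a, the gene of the histone demethylase LSD1, and came from picked single-cell clones, and no label ties a library to a clone. Both groups share the cell line, the medium and the day, and the libraries of a group were called biological replicates, so p-values measure the spread between these libraries.

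Hox genes encode homeodomain transcription factors that give cells their position along the head-to-tail axis. They lie in clusters in the order in which they act, with low paralog numbers at the anterior end, which are switched on first and reach into the hindbrain, and high numbers at the posterior end. In the gastrulating embryo they come on in the primitive streak and its mesoderm and later in the neural tube, and they are kept silent by Polycomb proteins in pluripotent cells. On the mm9 assembly, HoxA spans positions 52105366 to 52210874 of chromosome 6 on the minus strand, with the anterior genes at the low end. HoxB spans 96055630 to 96229570 of chromosome 11, HoxC 102751534 to 102867274 of chromosome 15 and HoxD 74506367 to 74603200 of chromosome 2, all on the plus strand and with the posterior genes first. Gene models overlap inside the clusters: 18 of the 39 members overlap another gene on their own strand and 13 overlap a gene on the other strand. The Hoxa3 model runs across Hoxa4, Hoxa5 and Hoxa6 and also overlaps Hoxa2. Hoxd3 runs across Hoxd4, and Hoxb7 meets Hoxb8. The UMIs of all these genes are uncertain to the degree that counting could split them.

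Promoters are shown for Hoxa2, Hoxa5 and Hoxa7 of HoxA and for Hoxb4. The HoxA genes shown were higher in LSD1KO EBs under every setting tried, and Hoxb4 was lower under every setting. Hoxa3, Hoxd11 and Hoxd13 were also higher under every setting, and their promoters are not shown. RefSeq sequence of GRCm38.p6 was at hand for 24 promoters of 22 of the 39 members, each with 250 bases before and 50 after the start. The capitals mark TTTATG, the core of the site that the caudal (Cdx) proteins bind, TGATTNAT, a joint site of Hox and Pbx proteins, and AGGTCA, a half-site of the retinoic acid receptors, each searched on both strands.
Hoxa2, chr6:52164782-52165081, minus strand: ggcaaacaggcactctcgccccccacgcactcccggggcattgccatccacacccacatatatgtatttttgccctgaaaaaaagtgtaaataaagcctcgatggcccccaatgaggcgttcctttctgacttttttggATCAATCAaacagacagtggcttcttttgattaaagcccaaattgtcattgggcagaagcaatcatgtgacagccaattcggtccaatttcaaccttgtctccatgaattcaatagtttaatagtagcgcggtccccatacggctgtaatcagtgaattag
Hoxa5, chr6:52204538-52204837, minus strand: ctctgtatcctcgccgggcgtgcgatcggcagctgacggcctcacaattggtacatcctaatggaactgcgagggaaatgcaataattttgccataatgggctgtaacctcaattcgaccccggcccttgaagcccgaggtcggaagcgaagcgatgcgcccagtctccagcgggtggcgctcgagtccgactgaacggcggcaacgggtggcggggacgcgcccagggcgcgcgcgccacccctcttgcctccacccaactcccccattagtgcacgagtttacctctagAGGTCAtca
Hoxa7, chr6:52218524-52218823, minus strand: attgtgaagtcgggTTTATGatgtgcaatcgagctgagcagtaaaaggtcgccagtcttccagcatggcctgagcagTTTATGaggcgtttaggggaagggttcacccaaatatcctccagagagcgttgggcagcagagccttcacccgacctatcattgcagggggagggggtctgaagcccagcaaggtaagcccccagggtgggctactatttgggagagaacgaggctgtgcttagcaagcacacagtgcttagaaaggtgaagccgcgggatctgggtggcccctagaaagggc
Hoxb4, chr11:96318017-96318316, plus strand: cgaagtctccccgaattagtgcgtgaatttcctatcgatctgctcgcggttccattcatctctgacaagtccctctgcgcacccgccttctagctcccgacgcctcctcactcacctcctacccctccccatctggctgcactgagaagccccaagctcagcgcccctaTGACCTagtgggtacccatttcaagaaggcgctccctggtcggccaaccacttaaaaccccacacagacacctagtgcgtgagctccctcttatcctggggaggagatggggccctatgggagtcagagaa
The Hoxa7 window held 2 matches to the Cdx letters, at 236 and 173 bases before the start, and the Hoxa2 window held 1 match to the Hox-Pbx letters, 111 bases before it. The receptor half-site lay 81 bases before the Hoxb4 start and, in Hoxa5, after the start. Every window shown thus held a marked match, whereas the windows of Hoxa3 and Hoxd13, which are not shown, held none. Over the 24 Hox promoters, 5 held the Cdx letters, against 11.9% of all 32851 promoters of this length. The Hox-Pbx letters were in 2 of 24 (3.22% of all) and the receptor half-site in 7 of 24 (16.3% of all). The median Hox promoter held 14.5 CG dinucleotides and the median of all promoters 7.0. These matches are descriptions of letters in a short window.

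The 4 libraries held 72285943 to 75406512 UMIs over all barcodes. Cells were the barcodes that reached both 500 UMIs and 500 genes, 3045 to 6828 of them a library, with median depths of 9211 to 20304 UMIs. Kdm1a stood at 221 and 246 CPM (counts per 1000000 UMIs) in the WT libraries and at 1.10 and 0.810 CPM in the LSD1KO libraries (log2 fold change -7.92 ± 0.18 SE, adjusted p = 0.000131), which goes with the labels. Counts were made from the 3′ end of transcripts, outside the deleted part, and so read loss of the transcript. Library pairs shared 3 to 15 kept barcodes. Values below are CPM scaled by TMM factors in whole EBs and in fits, and plain CPM (relative to all UMIs of the cells summed) where sums or gates are described. One UMI stands for one transcript whatever its length.

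Hox transcripts were rare in every library. Summed over the 39 genes, they made up 63.6 and 27.9 CPM (plain) in the WT libraries and 49.1 and 25.6 CPM in the LSD1KO libraries. The summed levels of the groups overlapped, and the libraries with replicate number 1 stood above those with number 2 in both. Barcodes with at most 100 UMIs, which carry free RNA, held the Hox genes at nearly the levels of the cells, 63.1, 26.6, 44.3 and 25.7 CPM in the same order. Free RNA of this makeup can enter any droplet, and the levels of gates that should lack these genes are given beside the results.

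The clusters were used unequally. HoxB gave the largest part of the Hox UMIs in each library, 59.6% and 67.7% in WT and 51.7% and 46.7% in LSD1KO. HoxA gave 4.54% and 6.95% in WT and 29.2% and 27.4% in LSD1KO. In CPM (plain), HoxA summed to 2.89 and 1.94 in WT and to 14.3 and 7.01 in LSD1KO. HoxA was thus higher in both LSD1KO libraries than in either WT library. HoxB summed to 37.9 and 18.9 CPM in WT and to 25.4 and 12.0 CPM in LSD1KO, and HoxD to 14.9 and 5.25 CPM in WT and to 7.57 and 5.16 CPM in LSD1KO. HoxC summed to 7.94 and 1.82 CPM in WT and to 1.85 and 1.48 CPM in LSD1KO. The groups overlapped in the HoxB, HoxC and HoxD sums. By position along the clusters, paralogs 4 to 8 gave 41.8% and 29.4% of the Hox UMIs in WT and 20.6% and 26.6% in LSD1KO, and paralogs 9 to 13 gave 12.3% and 9.35% in WT and 20.3% and 26.1% in LSD1KO.

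In whole EBs, Hox genes were called both higher and lower in LSD1KO. Of the 39 members, 29 passed the filter on low counts, and 9 of these were higher and 9 lower in LSD1KO at an adjusted p under 0.05, while 11 did not pass. Over all 16953 genes tested, 22.6% were higher and 21.6% lower, so calls in either direction were common among all genes. All 5 HoxA calls were higher and all 3 HoxC calls were lower, whereas HoxB gave 2 higher and 5 lower and HoxD 2 higher and 1 lower. The groups did not overlap for 23 of the 29 members, against 77.5% of all genes tested. The median log2 fold change was 3.26 over the 8 HoxA genes tested, -1.55 over 9 of HoxB, -2.75 over 5 of HoxC and -0.53 over 7 of HoxD, beside -0.00088 over all genes tested.

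**Figure D1:**
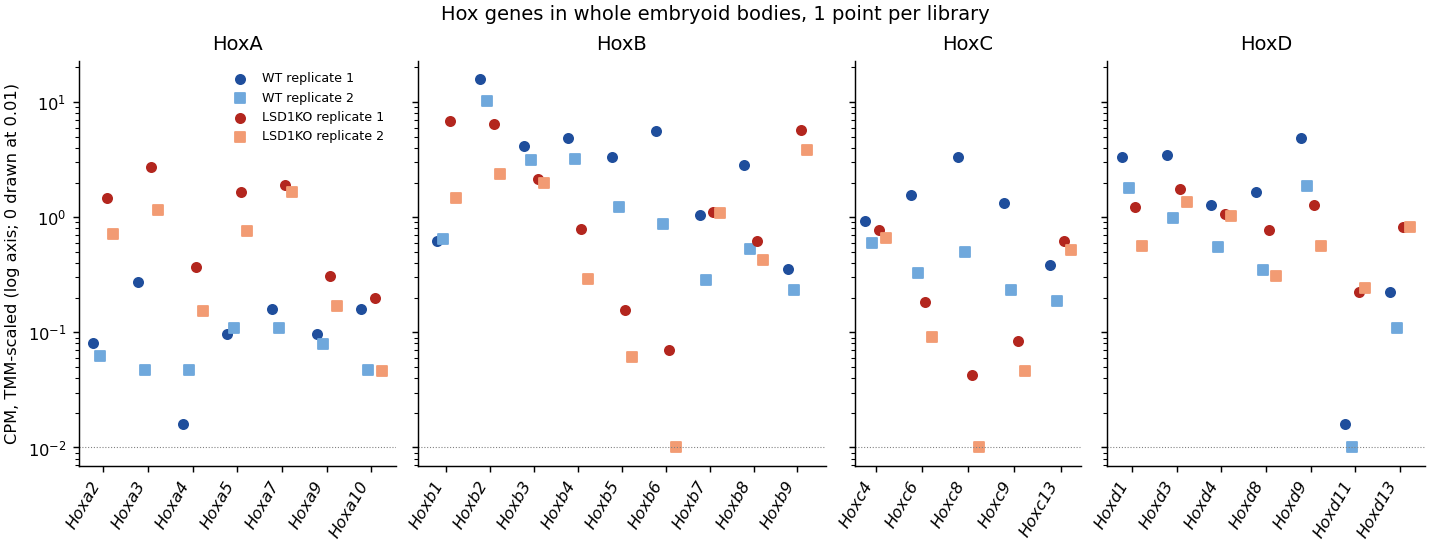
Level of 28 Hox genes that passed the filter, in TMM-scaled CPM on a log axis, with 1 point per library and 1 panel per cluster in order of paralog number. Red (LSD1KO) points lie above blue (WT) points from Hoxa2 to Hoxa7, at Hoxb1 and at Hoxb9, and below them from Hoxb2 to Hoxb6 and from Hoxc6 to Hoxc9, where the WT libraries also stand apart.

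The HoxA genes of paralogs 2 to 7 were nearly silent in WT EBs. Hoxa2, which sets the identity of the second branchial arch, stood at 0.0804 and 0.0628 CPM in WT and at 1.48 and 0.718 CPM in LSD1KO (log2 fold change 3.91 ± 0.55 SE, adjusted p = 0.0044). Hoxa3, needed for thymus and parathyroid, stood at 0.273 and 0.0471 CPM in WT and at 2.72 and 1.16 CPM in LSD1KO (3.59 ± 0.76, adjusted p = 0.0149). Hoxa5, which acts in lung and neck, stood at 0.0964 and 0.11 CPM in WT and at 1.67 and 0.764 CPM in LSD1KO (3.54 ± 0.54, adjusted p = 0.00543). For each of these genes the LSD1KO libraries lay apart from the WT libraries, with the first knockout library above the second, by 2.07 times for Hoxa2, 2.34 times for Hoxa3 and 2.18 times for Hoxa5. Hoxa7, a gene of the thoracic region, stood at 0.161 and 0.11 CPM in WT and at 1.91 and 1.64 CPM in LSD1KO (3.70 ± 0.34, adjusted p = 0.00135). Hoxa4 rested on 1 and 3 UMIs in WT and 26 and 10 UMIs in LSD1KO (2.97 ± 0.77, adjusted p = 0.0277) and was no longer called by DESeq2 or when either WT library was left out. Toward the posterior end no gene passed. Hoxa9 (1.44 ± 0.52, adjusted p = 0.0717) and Hoxa10 (0.25 ± 0.87, adjusted p = 0.83) did not pass, and Hoxa6, Hoxa11 and Hoxa13 held at most 3 UMIs in any library and were not tested.

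HoxB held calls in both directions. Hoxb1, which marks the fourth segment of the hindbrain and early streak mesoderm, stood at 0.627 and 0.643 CPM in WT and at 6.86 and 1.47 CPM in LSD1KO (2.71 ± 0.74, adjusted p = 0.0318). Its LSD1KO libraries differed 4.67-fold, and the call was lost when either WT library was left out (adjusted p up to 0.119). Hoxb9, a posterior thoracic gene at the other side of the cluster, stood at 0.354 and 0.235 CPM in WT and at 5.76 and 3.84 CPM in LSD1KO (4.02 ± 0.35, adjusted p = 0.00116). Hoxb2 to Hoxb6 were lower. Hoxb2, a hindbrain gene, stood at 15.7 and 10.2 CPM in WT and at 6.48 and 2.35 CPM in LSD1KO (-1.55 ± 0.49, adjusted p = 0.048). Hoxb3 stood at 4.13 and 3.12 CPM in WT and at 2.15 and 1.97 CPM in LSD1KO (-0.81 ± 0.23, adjusted p = 0.0339). Neither call held when library totals were the only scaling or without the first WT library. The Hoxb2 call was also lost without the second WT library and the Hoxb3 call without either knockout library. The antisense transcript Hoxb3os, whose model overlaps both genes, was lower as well (-1.80 ± 0.34, adjusted p = 0.00991). Per the methods, Cell Ranger ran with its default settings, which for 3′ libraries count reads on the sense strand. Hoxb4, known for its action in blood stem cells, stood at 4.89 and 3.23 CPM in WT and at 0.792 and 0.29 CPM in LSD1KO (-2.89 ± 0.49, adjusted p = 0.00748). Hoxb5, which marks long-lived blood stem cells, stood at 3.31 and 1.22 CPM in WT and at 0.156 and 0.0611 CPM in LSD1KO (-4.35 ± 0.69, adjusted p = 0.00612). Hoxb6, a gene of the lateral plate mesoderm, stood at 5.64 and 0.879 CPM in WT and rested on 5 and 0 UMIs in LSD1KO (-6.41 ± 1.34, adjusted p = 0.0141). Both WT libraries lay above both knockout libraries for each of these genes, although the WT libraries differed 6.42-fold for Hoxb6. Hoxb7 (1.04 and 0.282 CPM in WT, 1.12 and 1.09 CPM in LSD1KO, adjusted p = 0.34) and Hoxb8 (2.86 and 0.534 CPM in WT, 0.622 and 0.428 CPM in LSD1KO, adjusted p = 0.13) did not pass, and Hoxb13 was not tested with 5 UMIs in all.

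HoxC was low throughout and nearly lost its central genes in LSD1KO EBs. Hoxc8, which acts in the thoracic spine and its motor neurons, stood at 3.36 and 0.502 CPM in WT and rested on 3 and 0 UMIs in LSD1KO. Over both libraries of a group, WT was 79.2 times higher, with an exact interval from counting error alone of 26.8 to 387, and the fitted change passed the test (-6.34 ± 1.39, adjusted p = 0.0162). Hoxc9 stood at 1.33 and 0.235 CPM in WT and at 0.0848 and 0.0459 CPM in LSD1KO (-3.53 ± 0.99, adjusted p = 0.0346). Hoxc6 stood at 1.56 and 0.33 CPM in WT and at 0.184 and 0.0917 CPM in LSD1KO (-2.75 ± 0.85, adjusted p = 0.0462). The first WT library was several times above the second for all of these genes, and the Hoxc6 and Hoxc9 calls were lost without it and without either knockout library, that of Hoxc6 also under library totals. Hoxc4, at the anterior end, stood at 0.932 and 0.596 CPM in WT and at 0.778 and 0.657 CPM in LSD1KO, with overlapping groups (adjusted p = 0.846). Hoxc13, known for its role in hair, stood at 0.386 and 0.188 CPM in WT and at 0.622 and 0.52 CPM in LSD1KO (0.99 ± 0.43, adjusted p = 0.111). Hoxc5, Hoxc10, Hoxc11 and Hoxc12 were not tested and held at most 19 UMIs in any library.

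HoxD showed the fewest calls relative to its members tested. Hoxd11 and Hoxd13, limb genes of the posterior end, were higher. Hoxd13 stood at 0.225 and 0.11 CPM in WT and at 0.82 and 0.825 CPM in LSD1KO (2.29 ± 0.41, adjusted p = 0.00879). Hoxd11 rested on 1 and 0 UMIs in WT and 16 and 16 UMIs in LSD1KO (4.59 ± 0.81, adjusted p = 0.00817), a ratio of 32.5 over the groups with a counting interval of 5.42 to 1320. Hoxd9 stood at 4.92 and 1.85 CPM in WT and at 1.27 and 0.566 CPM in LSD1KO (-1.87 ± 0.59, adjusted p = 0.0489), and this call was lost without the first WT library or the second knockout library and under library totals. Hoxd1 (3.36 and 1.79 CPM in WT, 1.23 and 0.566 CPM in LSD1KO) missed the threshold narrowly (-1.51 ± 0.48, adjusted p = 0.0501). It also missed it in 4 of the 10 alternatives. It was called lower in the others, among them DESeq2, no filter, the replicate block and leaving out the 5% of cells with the most UMIs. Hoxd3 (adjusted p = 0.491), Hoxd4 (adjusted p = 0.731) and Hoxd8 (adjusted p = 0.411) had overlapping groups. Hoxd10 and Hoxd12 were not tested, with at most 14 UMIs in any library.

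**Figure D2:**
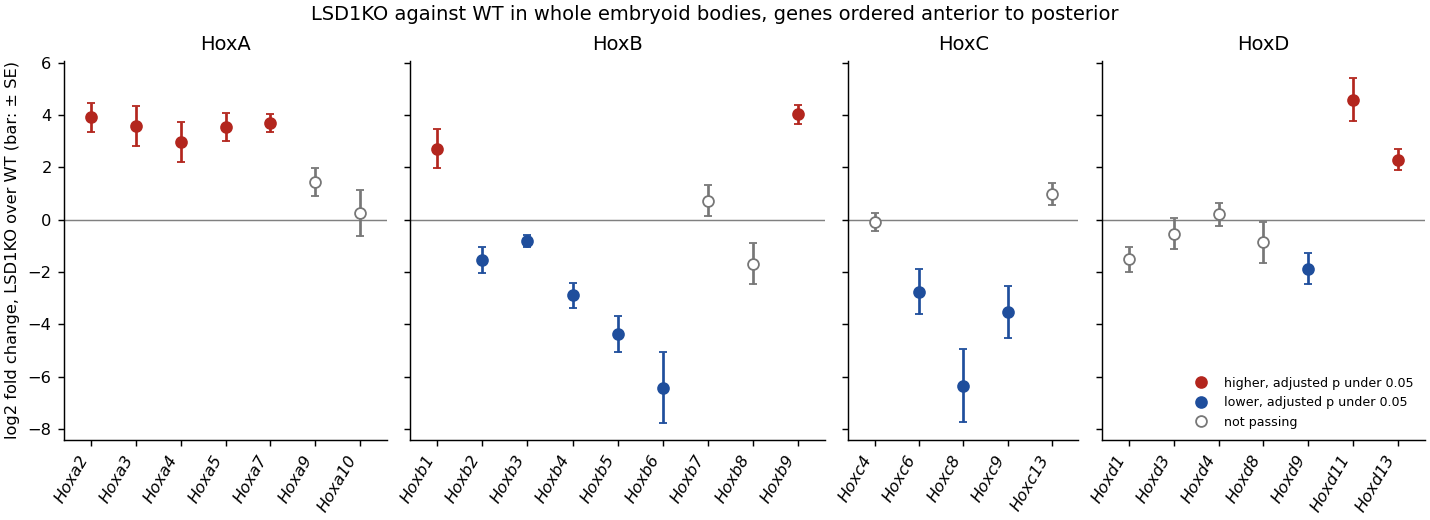
Log2 fold change of LSD1KO over WT in whole EBs for 28 Hox genes tested, with bars of ± 1 SE, by cluster and paralog number. The points lie above 0 along HoxA, lowest at Hoxa10, and below 0 from Hoxb2 to Hoxb6 and from Hoxc6 to Hoxc9. Outside HoxA, the genes called higher are Hoxb1, Hoxb9, Hoxd11 and Hoxd13.

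The calls differed in how far they rested on 1 library or setting. Under the 10 alternatives, 7 of the 9 higher genes (Hoxa2, Hoxa3, Hoxa5, Hoxa7, Hoxb9, Hoxd11 and Hoxd13) and 4 of the 9 lower genes (Hoxb4, Hoxb5, Hoxb6 and Hoxc8) kept their call in every one. The number of lower genes was 4 without the first WT library, 5 without the second knockout library and 5 with library totals as the only scaling. It was 13 without the second WT library, while the number of higher genes stayed between 7 and 10.

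Cells were next placed in gates by sets of marker genes that hold no Hox gene, because a library sum mixes cell types. A cell entered the gate of which it held at least 2 different markers, with rarer markers weighing more where lists competed, and 10 gates resulted. The gates are named after their marker lists and are not annotated cell types. Their makeup differed strongly between genotypes: the cardiac or lateral mesoderm gate held 1152 and 1491 WT cells and 11 and 3 LSD1KO cells, the pluripotent gate 52 and 306 WT cells and 1606 and 1222 LSD1KO cells, and the neuron gate 97 and 251 WT cells and 1850 and 866 LSD1KO cells. Leading genes of some gates did not go with the name. In LSD1KO libraries the endothelial and epithelial gates were led in part by trophoblast genes such as Plac1, Prl7d1 and Rhox9. In the WT libraries the neuron gate was led by Pim2, Lrp2 and Mcf2, and in the first LSD1KO library the neuron gate had Tagln, Acta1 and Actc1 beside Nefm, Nefl and Tubb3.

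In WT EBs, Hox transcripts were concentrated in the cardiac or lateral mesoderm, endothelial and primitive blood gates. The cardiac or lateral mesoderm gate, led by Hand1 and Tnnt2, held 165 and 82.1 CPM (plain, sum of the 39 genes) and contained 74.1% and 65.3% of the Hox UMIs of its libraries. The endothelial gate held 167 and 83.8 CPM and the primitive blood gate 96.6 and 105 CPM. The paraxial or mesenchymal mesoderm gate held 35.9 and 27.8 CPM, no more than the 63.6 and 27.9 CPM of the whole WT libraries. The other gates were far lower, at 12.6 and 8.20 CPM in the primitive streak gate, 7.20 and 3.15 CPM in visceral endoderm, 5.67 and 3.86 CPM in epithelial, 6.07 and 2.24 CPM in neural progenitor and 1.92 and 3.92 CPM in neuron. The pluripotent gate held 7.56 CPM from 5 UMIs and 3.67 CPM from 13 UMIs. These gates lay below the level of the free RNA of their libraries, 63.1 and 26.6 CPM.

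**Figure D3:**
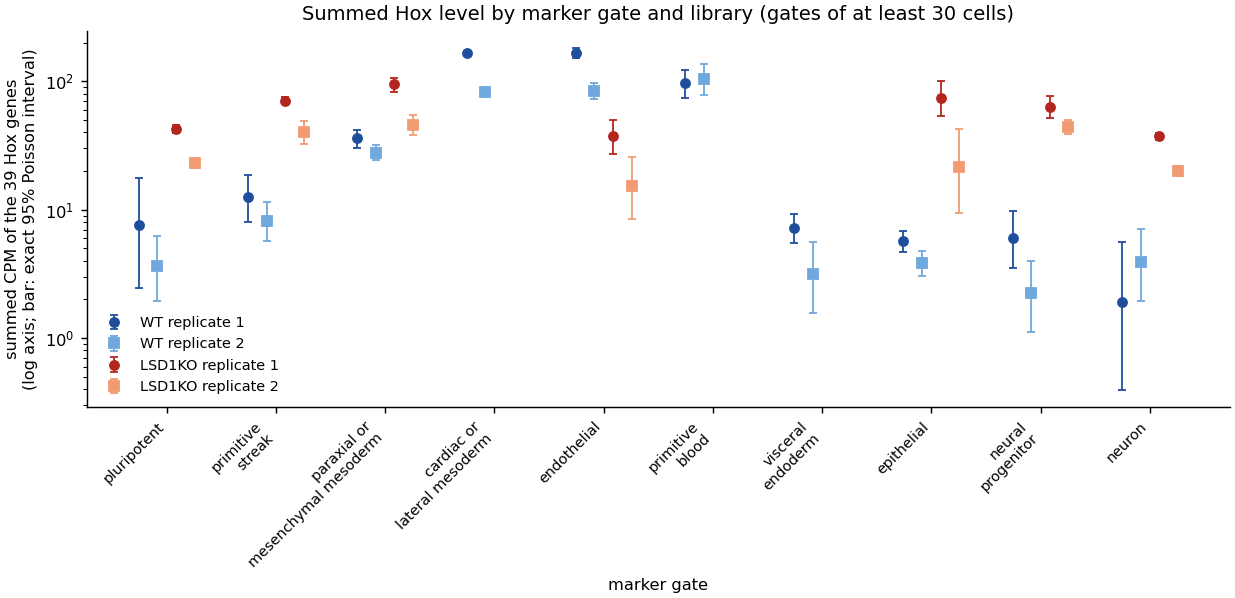
Summed plain CPM of the 39 Hox genes on a log axis, by marker gate and library, with exact 95% Poisson intervals that cover counting error only; a point is drawn for gates of at least 30 cells. WT points (blue) are highest in the cardiac or lateral mesoderm, endothelial and blood gates, and LSD1KO points (red) lie above WT in every shared gate except the endothelial one.

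Which genes made up these levels differed between WT gates. All 13 members tested across the 10 WT gates varied between them, where 68.7% of the 13226 genes tested did, so variation between gates was common to most genes. Members passed the filter through the gates where they are high, so this count is no support for a trait of Hox genes. Hoxb2 ranged from a mean of 0.423 CPM in the pluripotent gate to 37.7 CPM in primitive blood (adjusted p = 1.62e-13). Hoxb4 and Hoxb5 were highest in the endothelial gate, at means of 13.4 and 19.1 CPM (adjusted p = 2.77e-10 and 3.8e-08), and Hoxd1 was highest in primitive blood at 21.9 CPM (adjusted p = 1.12e-08). Hoxb6, Hoxc8 and Hoxd9 were highest in cardiac or lateral mesoderm, at 10.0, 6.16 and 9.92 CPM (adjusted p = 6.39e-09, 1.77e-06 and 1.85e-09). The cardiac gate also carried the gap between the WT libraries: Hoxb6 stood there at 17.1 CPM in the first and 2.89 CPM in the second, and Hoxc8 at 10.4 and 1.91 CPM. Of the 9 genes lower in whole LSD1KO EBs, 7 were tested across WT gates, and each had its highest mean in the cardiac, endothelial or blood gate. The same filter applied to these 7 genes. LSD1KO libraries held 11 and 3 cells in the cardiac gate, 96 and 40 in the endothelial gate and 3 and 3 in the blood gate, and the part of these cell numbers in the whole EB calls was not tested. In sums over whole EBs, fewer cells of a type and less RNA per cell cannot be told apart.

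In LSD1KO EBs the Hox level varied less between gates. The summed level was 42.5 and 23.0 CPM in the pluripotent gate, 37.5 and 20.2 CPM in neuron, 63.5 and 44.3 CPM in neural progenitor, 70.9 and 40.2 CPM in primitive streak and 94.8 and 45.6 CPM in the paraxial or mesenchymal gate. The endothelial gate held 37.3 and 15.4 CPM and the epithelial gate 74.8 and 21.7 CPM, the latter from 43 and 8 UMIs. The free RNA of these libraries held 44.3 and 25.7 CPM, and the part of free RNA in each gate was not tested. Of 6 members tested across the 7 gates with enough cells, 4 varied between gates, beside 36.7% of the 12412 genes tested. The same kind of filter applied here. Hoxb1 was highest in the primitive streak gate at a mean of 11.4 CPM (adjusted p = 1.1e-05), Hoxa3 as well at 4.93 CPM (adjusted p = 0.00151), Hoxb2 in the paraxial gate at 12.4 CPM (adjusted p = 2.56e-05) and Hoxb3 in neural progenitor at 5.48 CPM (adjusted p = 0.0121). Hoxb9 did not pass (adjusted p = 0.113) and lay between 4.08 and 13.9 CPM in the 7 gates of the first library and between 2.72 and 4.40 CPM in those of the second.

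**Figure D4:**
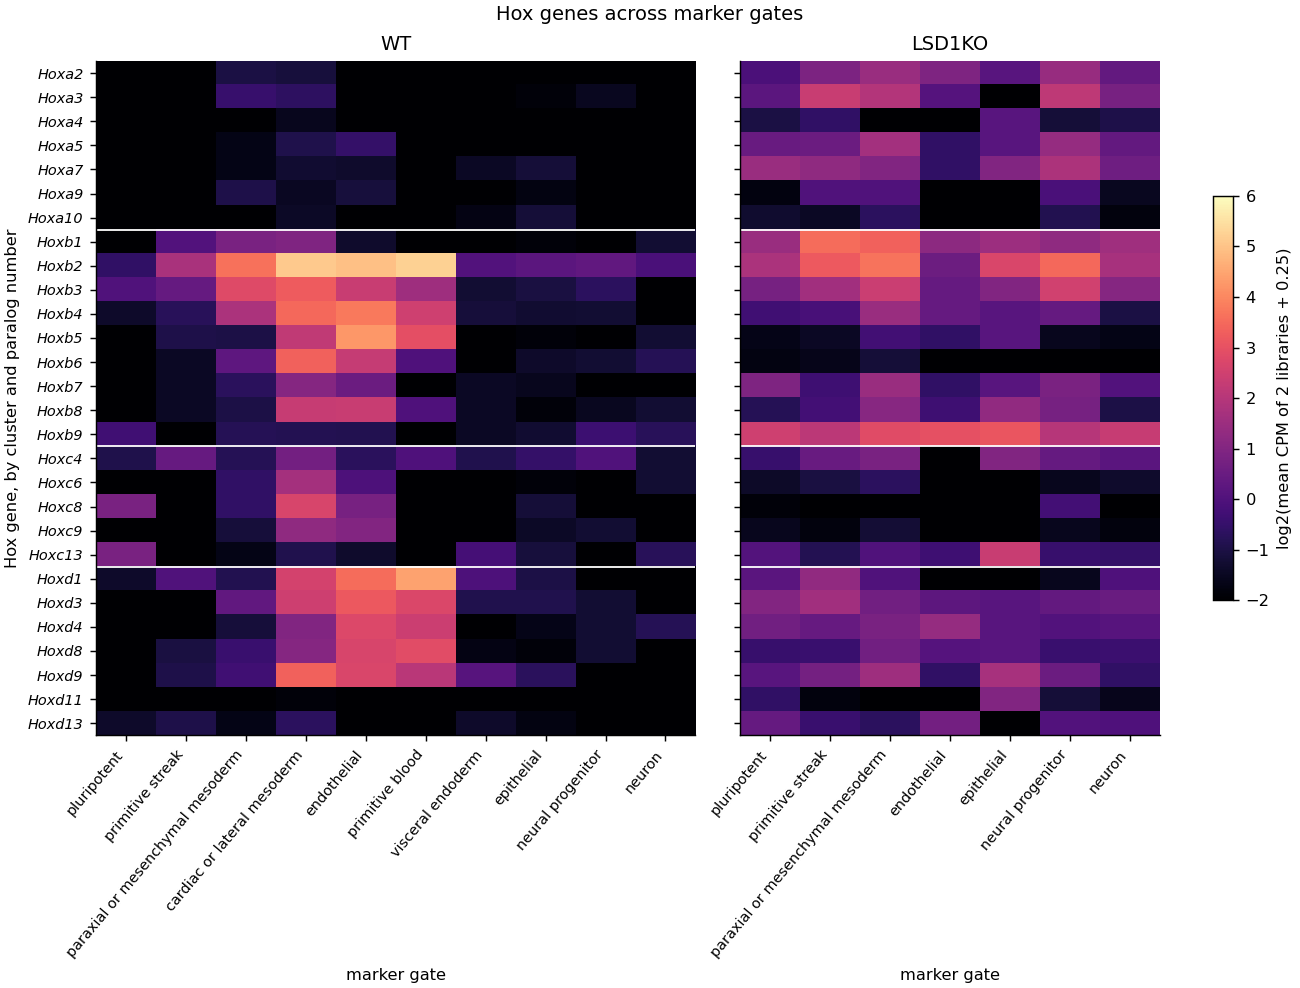
Mean plain CPM of the 2 libraries of each genotype, as log2(CPM + 0.25), for 28 Hox genes (rows, by cluster and paralog number) in the marker gates (columns). In WT the bright cells form a block of Hoxb2 to Hoxb5 and Hoxd1 to Hoxd9 in the cardiac, endothelial and blood gates, with Hoxb6 and Hoxb8 brighter in the cardiac and endothelial gates than in the blood gate, and in LSD1KO rows such as Hoxb9 and Hoxb2 are lit across most gates.

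Comparing genotypes inside gates, Hox genes called higher in LSD1KO were found in 6 gates and genes called lower in the endothelial gate. Over the 7 gates with at least 30 cells in every library, 49 pairs of a Hox gene and a gate were tested, of which 25 were higher in LSD1KO and 3 lower. In 16 pairs both WT libraries held no UMI, and such a pair passed the filter through LSD1KO alone and had to differ. Other pairs with few WT UMIs also passed through LSD1KO. Hoxb9 in the neuron gate, for example, held 0 and 2 UMIs in WT and 155 and 83 in LSD1KO. The count of higher pairs, over all gates or within a gate, is thus no support for a general rise. The count of higher pairs fell to 16, 12 and 9 without the first WT, the second WT or the first knockout library, while the count of lower pairs was 7 without the second WT and 5 without the first knockout library. The count of higher pairs was 11 of 31 pairs where 3 markers were asked for, in 6 gates, and 8 of 28 where markers were not weighted, in 3 gates.

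In the pluripotent gate, led by Dppa5a and Dppa3, 6 of the 13 members tested were higher, Hoxa7, Hoxb1, Hoxb7, Hoxb9, Hoxd3 and Hoxd4. Over the 14203 genes tested there, 12.8% were higher and 10.7% lower. Hoxb9 stood at 0 and 1.19 CPM in WT and at 6.63 and 4.01 CPM in LSD1KO (log2 fold change 2.42 ± 0.68, adjusted p = 0.0208). Hoxa7 had no UMI in either WT library and 61 and 51 UMIs in LSD1KO, at least 3.33-fold higher against a floor of 3 counts over the WT group (adjusted p = 0.0163). Hoxb1 was likewise at least 3.18-fold higher (adjusted p = 0.0405) and Hoxd3 at least 2.44-fold higher (adjusted p = 0.0231). The first WT library had 52 cells in this gate, where a count of 3 comes to 4.53 CPM. Values under that level rest on fewer than 3 UMIs in it and can easily be missed. Calls of this gate were mostly lost when 1 WT library was left out, with adjusted p up to 0.212 for Hoxb9 and 0.351 for Hoxa7.

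The primitive streak gate had 4 of 5 members higher, beside 18.1% higher and 16.5% lower over its 11858 genes. Its median WT cell held 2 markers of its own list and 3 of the next list in both libraries. In LSD1KO these were 4 and 3 in the first library and 5 and 4 in the second. In WT, 61 of 113 and 261 of 420 cells held only the minimum of 2 markers, so the gate may hold unlike cells in the 2 genotypes. Hoxb1 stood at 1.67 and 0 CPM in WT and at 16.8 and 4.55 CPM in LSD1KO (4.53 ± 0.93, adjusted p = 0.00378, and 0.0503 without the first knockout library). Hoxa3 had no WT UMI and stood at 5.86 and 3.41 CPM in LSD1KO, at least 12.0-fold higher (adjusted p = 0.0011). Hoxb9 had no WT UMI either and stood at 3.81 and 3.79 CPM in LSD1KO, at least 8.36-fold higher (adjusted p = 0.00134). Hoxb2 stood at 3.89 and 2.79 CPM in WT and at 10.8 and 6.06 CPM in LSD1KO (1.54 ± 0.41, adjusted p = 0.0139), and lost its call without the second WT or the first knockout library.

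In the paraxial or mesenchymal mesoderm gate, led by Ebf2, Alx1 and Pax3 in WT, 3 of 6 members were higher, against 19.1% higher and 16.6% lower over 12059 genes. Hoxb9 stood at 0.24 and 0.424 CPM in WT and at 9.65 and 4.12 CPM in LSD1KO (4.17 ± 0.63, adjusted p = 0.000452). Hoxb1 stood at 1.68 and 1.41 CPM in WT and at 13.7 and 5.99 CPM in LSD1KO (2.67 ± 0.47, adjusted p = 0.00125). Both knockout libraries lay above both WT libraries for these genes, and both calls were lost without the first WT library, with adjusted p of 0.0614 for Hoxb1 and 0.0506 for Hoxb9. Hoxb2, Hoxb3 and Hoxb4 did not pass in this gate (adjusted p = 0.924, 0.282 and 0.48), with Hoxb2 at 12.7 and 12.4 CPM in WT and at 18.2 and 5.99 CPM in LSD1KO.

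The neural progenitor gate had all 6 members tested higher, beside 16.7% higher and 15.2% lower over 12106 genes. Ptn was among its leading genes in every library, and so was Sox1, a marker of the gate, except in the second LSD1KO library. Its median cell held 2 markers of its own list and 3 of the next list in both WT libraries. In LSD1KO these were 2 and 4 in the first library and 3 and 5 in the second. All 6 members held at most 4 UMIs in a WT library and passed the filter on low counts through LSD1KO. Their count is thus no support for a general rise in this gate. Hoxb2 stood at 1.45 and 0.648 CPM in WT and at 12.6 and 8.46 CPM in LSD1KO (3.32 ± 0.50, adjusted p = 2.66e-05). This call of Hoxb2 held whichever library was left out and where 3 markers were asked for. The other genes called in this gate were not tested with 3 markers. Hoxa3 held 1 UMI in WT and stood at 3.43 and 4.89 CPM in LSD1KO, a ratio of 35.7 with a counting interval of 5.96 to 1450 (adjusted p = 0.000108). Hoxa7 was at least 8.17-fold higher (adjusted p = 0.000192), and Hoxb3 (3.50 ± 0.64, adjusted p = 0.000232) and Hoxb9 (2.92 ± 0.79, adjusted p = 0.00745, and 0.286 without the second WT library) were higher too. In the neuron gate 3 of 11 were higher, Hoxb3 and Hoxb9 among them, against 9.57% higher and 7.59% lower over 14112 genes. Hoxb9 stood there at 0 and 0.756 CPM in WT and at 5.74 and 3.59 CPM in LSD1KO (3.30 ± 0.79, adjusted p = 0.023), and Hoxb3 had no WT UMI and was at least 2.71-fold higher (adjusted p = 0.0302). In the neuron gate of the first WT library a count of 3 comes to 1.92 CPM. This is above the 1.85 and 1.81 CPM of Hoxb3 in LSD1KO, so a like level could be missed there. None of these neuron gate calls held in every fit that left out 1 library.

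The epithelial gate, with 85 and 30 LSD1KO cells, had 3 of 4 members higher, beside 10.0% higher and 8.57% lower over 13579 genes. Hoxb9 stood at 0.206 and 0.154 CPM in WT and at 13.1 and 2.48 CPM in LSD1KO (5.50 ± 0.91, adjusted p = 0.000832), where the knockout values rest on 8 and 1 UMIs. Hoxb2 rested on 4 and 2 UMIs in LSD1KO, and its call did not hold with 1 knockout library. In the endothelial gate 3 of 4 members were lower, against 12.5% higher and 9.16% lower over 10631 genes. Hoxb2 stood at 36.7 and 28.6 CPM in WT and rested on 3 and 0 UMIs in LSD1KO, so that WT was 22.2 times higher with a counting interval of 7.49 to 109 (adjusted p = 0.000219). Hoxb5 stood at 28.2 and 12.0 CPM in WT and rested on 1 and 0 UMIs in LSD1KO (43.2 times, 7.61 to 1720, adjusted p = 0.00151). Hoxb4 stood at 14.7 and 13.8 CPM in WT and rested on 0 and 2 UMIs in LSD1KO (14.4 times, 3.84 to 121, adjusted p = 0.00264). These calls held whichever library was left out. These genes passed the filter through WT, where they are high, so their count is no support for a general fall in this gate, and Hoxb9, at 0.608 and 0 CPM (plain) in WT and at 10.8 and 4.40 CPM in LSD1KO, was not tested there. The LSD1KO cells of this gate and of the epithelial gate also expressed trophoblast genes, and the part of that difference in makeup was not tested.

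**Figure D5:**
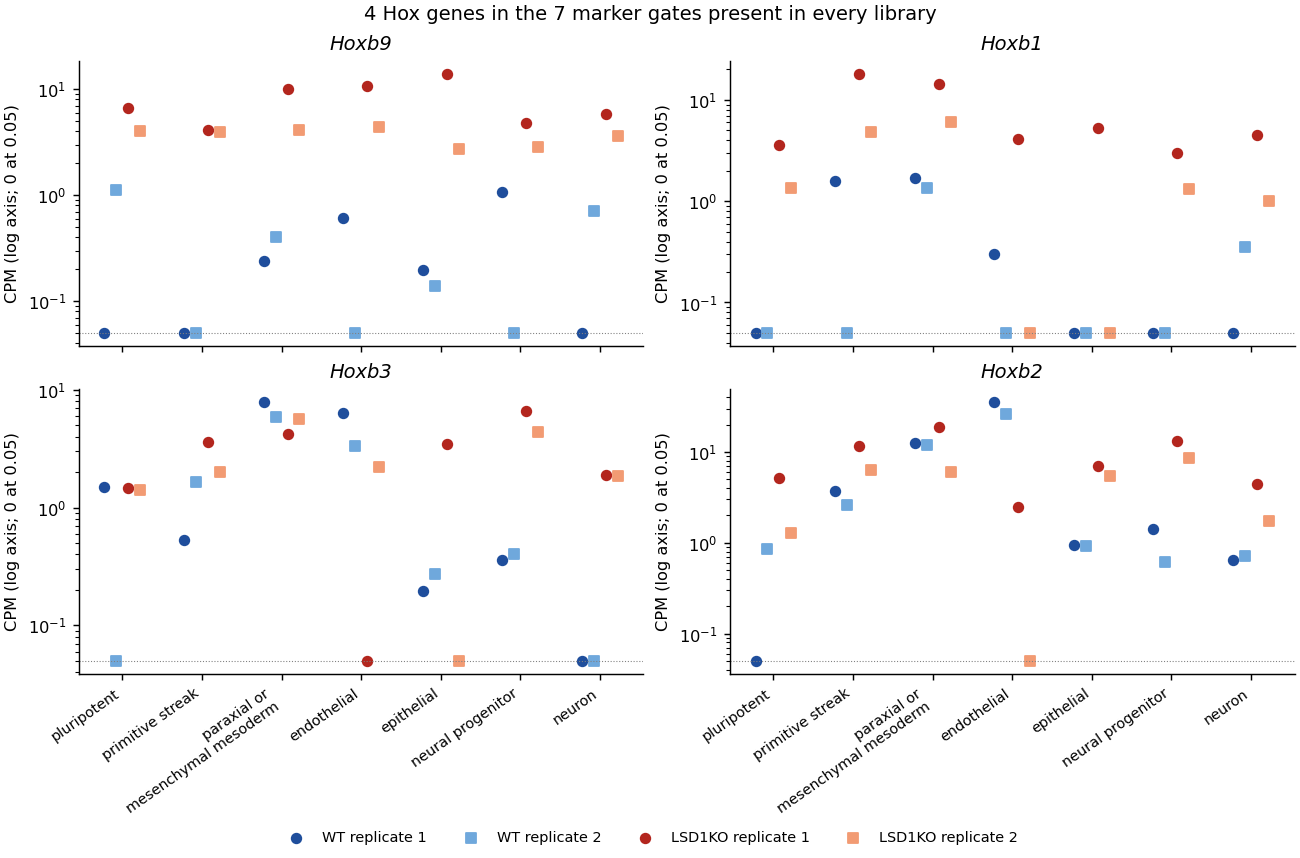
Plain CPM of Hoxb9, Hoxb1, Hoxb3 and Hoxb2 on a log axis in the 7 marker gates that every library holds, with 1 point per library and 0 drawn at 0.05. Hoxb9 lies higher in both LSD1KO libraries than in both WT libraries in all 7 gates, while Hoxb2 lies lower in LSD1KO in the endothelial gate and higher in the epithelial, neural progenitor and primitive streak gates.

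Whether the genotype difference varied between gates was tested in 1 fit over the 7 gates, which was added after the separate fits had been seen. It varied for 8 of the 14 members tested, where 33.4% of 13510 genes varied. These were Hoxb2 (adjusted p = 5.92e-08), Hoxd3 (0.000457), Hoxb3 (0.00096), Hoxd1 (0.00923), Hoxb4 (0.0116), Hoxd9 (0.0131), Hoxd4 (0.0134) and Hoxb5 (0.022). Members passed the filter of this fit where they are high, so the count is no support for a trait of Hox genes. The difference in Hoxb2 was lower in the endothelial gate than in the neural progenitor gate by a log2 value of -8.30 ± 0.74 (adjusted p = 2.3e-08), and lower than in the primitive streak gate by -6.02 ± 0.70 (adjusted p = 2.3e-06). These contrasts were chosen after the values had been seen. Hoxb2 rested on 3 and 0 UMIs in LSD1KO in the endothelial gate, and on 4 and 3 UMIs in WT in the neural progenitor gate. The threshold was missed by Hoxb1 (adjusted p = 0.304), Hoxb9 (0.345), Hoxa7 (0.63), Hoxa2 (0.743) and Hoxa3 (0.763). A p above the threshold does not show that the difference was equal between gates.

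Few cells held a Hox UMI. After thinning every cell to 1000 UMIs, a Hox UMI was found in 5.17% of cells of the first WT library (exact 95% interval 4.52 to 5.89), 2.50% of the second (2.14 to 2.91), 5.11% of the first LSD1KO library (4.54 to 5.74) and 2.61% of the second (2.06 to 3.27). The genotypes overlapped and the libraries numbered 1 were again the higher ones. Without thinning, at median depths of 11698, 9211, 11402 and 20304 UMIs, the shares were 24.3%, 15.2%, 31.6% and 28.3%. In the WT visceral endoderm gate, which should lack Hox expression, the thinned shares were 0.271% of 369 cells and 0 of 274 cells, at median depths of 20161 and 10603 UMIs. The exact 95% interval of the latter reached 1.34%. Intervals and limits cover counting error only.

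Some cells held several Hox genes. Cells with at least 3 different Hox genes made up 8.42% and 1.80% of WT cells and 4.15% and 3.88% of LSD1KO cells, and held 71.6% and 30.5% of the Hox UMIs in WT and 34.6% and 36.5% in LSD1KO. The cell with the most different Hox genes, 15, was in the primitive streak gate of the first LSD1KO library. Of cells with a Hoxb2 UMI, 67.2% and 43.2% in WT and 60.5% and 67.6% in LSD1KO had another Hox gene. Of cells with a Hoxb9 UMI, 55.0% and 30.8% of the 20 and 13 WT cells and 39.1% and 39.2% of the 361 and 222 LSD1KO cells did. Hoxc8 cells in WT mostly held another Hox gene, 92.2% of 103 and 85.0% of 20. These shares rise with the depth of a cell and were not thinned.

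The genes that act with, upstream of or beside the Hox clusters were counted in lists chosen for their known roles. Over 71 genes, 66 were tested in whole EBs, of which 22 were higher and 16 lower in LSD1KO, beside 22.6% higher and 21.6% lower over all genes tested. The higher genes numbered 13 without the first WT library and 14 without the first knockout library, and the lower genes 10 without the second knockout library. Of 9 TALE cofactors, homeodomain proteins that bind DNA together with Hox proteins, 4 were lower and 1 higher, with a median log2 fold change of -0.48. Meis1 stood at 46.4 and 31.2 CPM in WT and at 8.71 and 10.2 CPM in LSD1KO (-2.04 ± 0.22, adjusted p = 0.00194), and Pknox2 (-1.08 ± 0.12) and Pbx2 (-0.61 ± 0.09) were lower as well. Pbx3 (-0.08 ± 0.11, adjusted p = 0.586) and Meis2 (-0.48 ± 0.26, adjusted p = 0.184) did not pass.

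The caudal genes, known activators of central and posterior Hox genes, went up in part. Cdx1 held 1 UMI in all in WT and stood at 3.80 and 0.749 CPM in LSD1KO (7.86 ± 1.38, adjusted p = 0.00812), a ratio of 323 with a counting interval of 57.5 to 12800. Cdx4 was higher at low levels (2.83 ± 0.61, adjusted p = 0.0157), but was not called by DESeq2 or without the first WT or the first knockout library. Cdx2 stood at 13.1 and 5.32 CPM in WT and at 11.4 and 1.83 CPM in LSD1KO and did not pass (adjusted p = 0.664). Of the ParaHox and Evx genes, relatives of the Hox genes, Gsx1 was at least 14.5-fold higher from 0 UMIs in WT (adjusted p = 0.00757) and Pdx1 was higher (1.87 ± 0.43, adjusted p = 0.0193, not called by DESeq2), while Evx1, the neighbour of Hoxa13, stood at 3.78 and 2.62 CPM in WT and at 10.5 and 1.53 CPM in LSD1KO (adjusted p = 0.395).

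The retinoic acid list, which covers its enzymes and receptors, gave 1 higher and 2 lower of 10 tested (median -0.22), no more than the 22.6% and 21.6% of all genes. Rarb, a receptor and a direct target of retinoic acid, stood at 43.6 and 37.4 CPM in WT and at 1.44 and 1.68 CPM in LSD1KO (-4.70 ± 0.16, adjusted p = 0.000386). Cyp26a1, which breaks retinoic acid down, stood at 44.2 and 57.1 CPM in WT and at 16.5 and 4.72 CPM in LSD1KO (-2.25 ± 0.55, adjusted p = 0.0232), and lost its call without either WT library. Dhrs3, which turns retinal back to retinol, was higher (2.69 ± 0.25, adjusted p = 0.00143). Rara (adjusted p = 0.45) and Crabp1 (adjusted p = 0.68) did not pass.

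Genes of posterior growth and axial progenitors gave 6 higher and 2 lower of 10 (median 1.34), beside 22.6% and 21.6% of all genes. T, the streak gene Brachyury, stood at 22.8 and 35.9 CPM in WT and at 253 and 49.2 CPM in LSD1KO (2.36 ± 0.74, adjusted p = 0.0487), a call that did not hold by DESeq2 or without either WT library or the first knockout library. Wnt3a (2.93 ± 0.84, adjusted p = 0.0372) and Nkx1-2 (3.16 ± 0.96, adjusted p = 0.044), of the caudal progenitors, were higher at low levels, and Wnt5a was lower (-2.08 ± 0.66, adjusted p = 0.0489). Each of the calls of Wnt3a, Nkx1-2 and Wnt5a was lost without the second WT library and under at least 1 other alternative. Gdf11 (-0.45 ± 0.14, adjusted p = 0.0505) and Tbx6 (adjusted p = 0.842) did not pass. Trithorax and Polycomb regulators of Hox genes gave 3 higher and 6 lower of 14 (median 0.0), beside 22.6% and 21.6% of all genes. Cbx7, a Polycomb reader, stood at 13.1 and 15.1 CPM in WT and at 33.2 and 38.4 CPM in LSD1KO (1.34 ± 0.13, adjusted p = 0.00152). Bmi1 fell from 7.59 and 7.53 CPM to 2.79 and 2.83 CPM (-1.43 ± 0.16, adjusted p = 0.00214) and Cbx2 was lower (-0.67 ± 0.12), whereas Psip1 was higher (0.60 ± 0.15). The core enzyme gene Ezh2 (0.01 ± 0.12, adjusted p = 0.939) and Suz12 (0.05 ± 0.10, adjusted p = 0.691) did not pass.

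Genes flanking the clusters gave 7 higher and 2 lower of 17 tested, with a median of 0.41, beside 22.6% and 21.6% of all genes. Skap2, beside HoxA, stood at 13.1 and 14.6 CPM in WT and at 56.6 and 52.0 CPM in LSD1KO (1.97 ± 0.11, adjusted p = 0.000529), and Snx10, beyond it, was higher (0.73 ± 0.12, adjusted p = 0.00686). Skap1, next to Hoxb1, stood at 2.39 and 2.02 CPM in WT and at 7.42 and 6.27 CPM in LSD1KO (1.63 ± 0.20, adjusted p = 0.00277), and Ttll6, on the Hoxb13 side of HoxB, was higher (2.43 ± 0.49, adjusted p = 0.0124). Tax1bp1 (-0.04 ± 0.09, adjusted p = 0.751) and Cbx5 (-0.03 ± 0.09, adjusted p = 0.801) did not pass.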

How the data were processed

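Single-cell suspensions of day 6 EBs had been run on 10x Genomics 3′ v3.1 chemistry. The authors deposited raw UMI counts per gene and barcode, made with Cell Ranger 7.1.0 on mm9 per the submitters' processing notes, which also list Seurat 4.3.0. Cells were barcodes reaching both 500 UMIs and 500 genes, doublets were not removed and no mitochondrial gene was listed. Counts were summed per library, or per library and marker gate, and tested with edgeR 4.0.16 (TMM, filterByExpr, quasi-likelihood F-test, Benjamini-Hochberg over all genes tested, threshold 0.05) in R 4.3.3, with DESeq2 1.42.0 as an alternative. The SE of a log2 fold change is its size divided by the square root of the F statistic. The edgeR script was tested on simulated data. Genes needed a UMI in at least 10 kept cells.

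Members and lists were chosen with earlier results of these data known. Gates use marker lists without Hox genes. A cell entered the list with at least 2 detected markers and the highest sum of -log2(share of cells with the marker), ties were left out, and this weighting was set after gate sizes and Hox values under an unweighted rule had been seen. Tested Hox genes are named, apart from results not reported here; of each other list, up to 4 genes past the threshold with the largest changes and the 2 with the highest level that did not pass. The promoters shown were chosen after the values had been seen. Shares of cells were thinned to 1000 UMIs, leaving out 199, 120, 334 and 212 shallower cells in the 2 WT and 2 LSD1KO libraries. Gene positions were read from GENCODE M1, whose assembly NCBIM37 is mm9. Same-numbered libraries were not treated as pairs.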

Additional observations from a re-analysis of the deposited data

Results flagged for a closer look

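The difference between LSD1KO and WT varied between marker gates, by the test of that variation itself in 1 fit over 7 gates, for Hoxb2 (adjusted p = 5.92e-08), Hoxb3 (0.00096), Hoxb4 (0.0116), Hoxb5 (0.022), Hoxd1 (0.00923), Hoxd3 (0.000457), Hoxd4 (0.0134) and Hoxd9 (0.0131). Over all genes in this fit, 33.4% varied. Hoxb2 was lower in LSD1KO in the endothelial gate and higher in the primitive streak, epithelial and neural progenitor gates. Hoxb3 was lower in whole EBs and higher in the neural progenitor and neuron gates. The Hoxb2 calls in the primitive streak and epithelial gates were each lost in some fits that left out 1 library. The same held for the Hoxb3 calls in whole EBs and in the neuron gate.

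Outside the 39 members, the noncoding feature Halr1, which lies beside HoxA, was above the WT level in both LSD1KO libraries, at 0.189 and 0.306 CPM (plain) in WT and 1.03 and 1.55 CPM in LSD1KO (log2 fold change 2.23 ± 0.41 SE, adjusted p = 0.00933). Here the second LSD1KO library was the higher one, unlike for the HoxA genes called higher.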

How the results depend on the processing

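Of the named changes of Hox genes in whole EBs, 256 values under the alternatives kept their side of the threshold, 22 lost it and 10 gained it, and within gates these numbers were 245, 39 and 11. No called value reversed under the alternatives run. The number of lower Hox genes in whole EBs was 5 when libraries were scaled by their totals alone, a setting that shifted the median log2 fold change of all genes by 0.13. Leaving out each library in turn gave 7 to 10 higher and 4 to 13 lower Hox genes, 13 to 20 higher and 10 to 15 lower genes of the other lists, and within gates 9 to 24 higher and 3 to 7 lower pairs of gene and gate. With 3 different markers per cell, 11 pairs were higher. Gates without marker weights were an alternative chosen after seeing the data. The weights of the main gates were also set after gate sizes and Hox values under an unweighted rule had been seen. Without weights, 8 pairs were higher and 0 lower in the 3 gates that kept enough cells, and the endothelial gate was not among them. The cause of these shifts was not tested. Where a library was left out, the lone library of its group was assumed to vary like the other group.

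Thinned to 2000 UMIs, the share of cells with a Hox UMI was 9.48% and 5.29% in WT and 8.98% and 5.55% in LSD1KO, and without thinning 24.3% and 15.2% in WT and 31.6% and 28.3% in LSD1KO, as more UMIs per cell were read. Same-numbered libraries deviated together with a correlation of 0.15 over 16953 genes, but 2 pairs do not show a pairing. With the replicate number as a block, 9 Hox genes were higher and 10 lower in whole EBs, 22 and 18 genes of the lists were higher and lower, and 29 pairs within gates were higher and 3 lower.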

Other observations

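Other noncoding features of the Hox clusters outside the member rule gave these values. Hoxb5os stood at 1.36 and 0.204 CPM (plain) in WT and at 0.0149 and 0 CPM in LSD1KO (log2 fold change -6.44 ± 1.47 SE, adjusted p = 0.0186). Hoxd3os1 did not pass (0.53 ± 0.53, adjusted p = 0.441). Hotair, Mir10a and Mir10b had no UMI in kept cells.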
